A study of Drosophila melanogaster with 8 samples.

Results

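The genes described here encode proteins that package and mark chromatin in Drosophila melanogaster: heterochromatin proteins, Polycomb and Trithorax group proteins, histone deacetylases and demethylases, nucleosome remodellers and insulator proteins. They were taken as a given list of 56 symbols, matched to the count table by FlyBase identifier through the gene symbols, older names included. All 56 were found among the 17559 genes of the table. The rule that picks them uses symbols and no measured value.

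Whole guts of adult females gave 2 groups of 4 RNA libraries, which the submitters call biological repeats. Control guts carried a UAS transgene for GFP and are labelled wild type, and the series title places GFP expression in enterocytes too. The other guts carried UAS-LamDm0 and overexpressed LamDm0, the B-type lamin of the fly, in enterocytes, the midgut cells that absorb nutrients. Flies of both groups were raised at 18 °C, and females aged 2 to 4 days were held at 29 °C for 2 days before RNA was taken. The labels name no driver line, so the promoter that restricts expression to enterocytes is not given in the sources used here. A whole gut also holds stem cells, enteroendocrine cells and muscle, and in such bulk samples fewer cells of a type and less RNA per cell cannot be told apart.

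Lamins line the inner face of the nuclear envelope, where silent, tightly packed chromatin gathers. Heterochromatin is marked by methylation of histone H3 at lysine 9, which HP1 proteins bind. Polycomb proteins keep genes off through methylation of H3 at lysine 27 and ubiquitylation of H2A, Trithorax proteins oppose them, and insulator proteins bound to DNA separate neighbouring domains.

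Libraries held 19720070 to 36022790 counts, and mitochondrially encoded genes took 5.55% to 21.9% of them. Lam itself had 16.2 to 20.2 CPM (counts per 1000000, with library totals scaled by TMM, the trimmed mean of M values) in the 4 control libraries and 2702 to 4647 CPM in the 4 LamDm0 libraries, so every library matched its label. No pair of libraries within a group was as close as counting noise would allow, but control replicates 1 and 2, and LamDm0 replicates 3 and 4, lay nearer to each other than any other pair of their group. The enterocyte markers Myo31DF and nub were present in all libraries at 264 to 349 and 89.7 to 214 CPM. Of 35 ovary and germline markers, 29 averaged under 1 CPM, and nos, osk and Cp36 reached at most 0.138 CPM in any library. Of the 10 tested, exu and armi were higher by the test described below, and the germline sums were 258 to 300 CPM in controls and 258 to 305 CPM in LamDm0 guts, most of it from tud. Summed CPM of 7 fat body markers ran from 17.5 to 785 in controls and from 908 to 1871 in LamDm0 guts, without overlap, although none of the 4 markers tested was called. In the same order, 17 stem cell and enteroblast markers summed to 409 to 491 and 406 to 507 CPM, 15 enteroendocrine markers to 433 to 626 and 469 to 656, and 13 muscle markers to 1665 to 3162 and 1510 to 3382. Sums of 12 enterocyte markers were 26090 to 32612 and 19625 to 35576 CPM, with 3 of the 12 lower and none higher. The 5 Malpighian tubule markers summed to 11.8 to 144 and 6.68 to 58.5 CPM, with 1 lower. The 7 hemocyte markers summed to 5.37 to 13.2 and 6.71 to 26.1 CPM. The part of these markers in the results below was not tested.

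Few transcripts of the chromatin genes were called different between LamDm0 and control guts. Of the 56 genes, 55 had enough counts to be tested, and the remaining gene, HDAC3, had 0 counts in all libraries. HDAC1 was higher and HDAC6 lower in LamDm0 guts, and the other 53 did not pass an adjusted p of 0.05 in edgeR's quasi-likelihood test. The share called was 3.64% of the 55, against 8.03% of all 8794 genes tested. By direction, 1 of 55 was higher where 4.76% of all tested genes were, and 1 was lower where 3.26% were. At an unadjusted p under 0.05 there were 9 members, or 16.4%, against 23.9% of all tested genes. These shares describe the list and do not test it.

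The fold changes were also narrow. The members' log2 fold changes (LamDm0 over control) ran from -0.74 to 0.71 with a median of 0.06 and quartiles of -0.07 and 0.18. Over all tested genes the median was 0.01 and the quartiles -0.22 and 0.23. For 41 of 55 members the 95% confidence interval of the fold change lay wholly within 1.5-fold in either direction, as it did for 42.7% of all tested genes. For 52 of 55 members it lay within 2-fold, against 72.1% of all tested genes. The exceptions among members were HDAC6, esc and Su(var)3-9, whose intervals reached -1.16, 1.26 and 1.09 on the log2 scale. Groups did not overlap for HDAC1, calypso, Pcl and esc, the 4 members higher in every LamDm0 library, against 9.95% of all tested genes. They did not overlap downward for HDAC6, ash2 and G9a, against 7.38%.

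**Figure D1:**
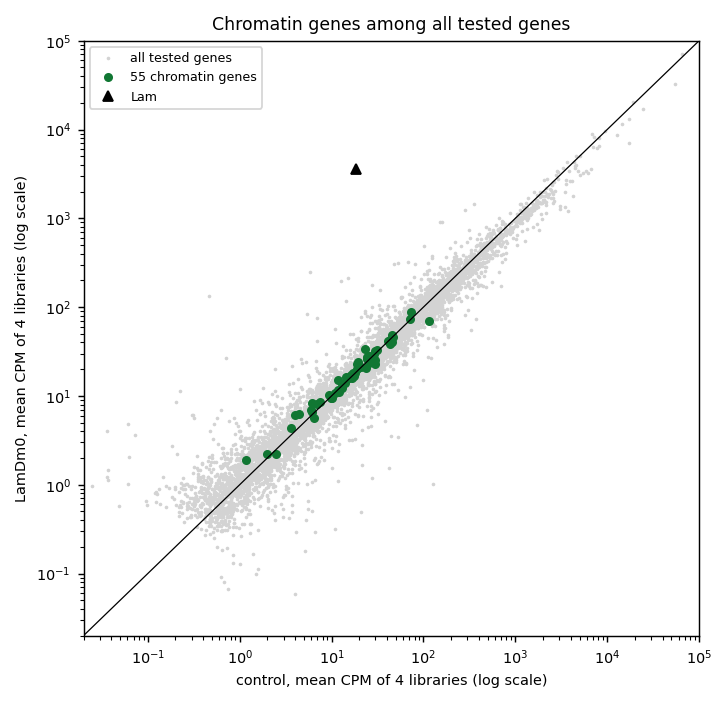
Mean CPM of 4 control libraries (x axis, log scale) against mean CPM of 4 LamDm0 libraries (y axis, log scale) for all tested genes in grey, the 55 tested chromatin genes in green and Lam as a black triangle. The chromatin genes lie along the line of equal level, between 1.53 and 91.9 CPM on average over the 8 libraries, while Lam stands 197-fold above it.

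**Figure D2:**
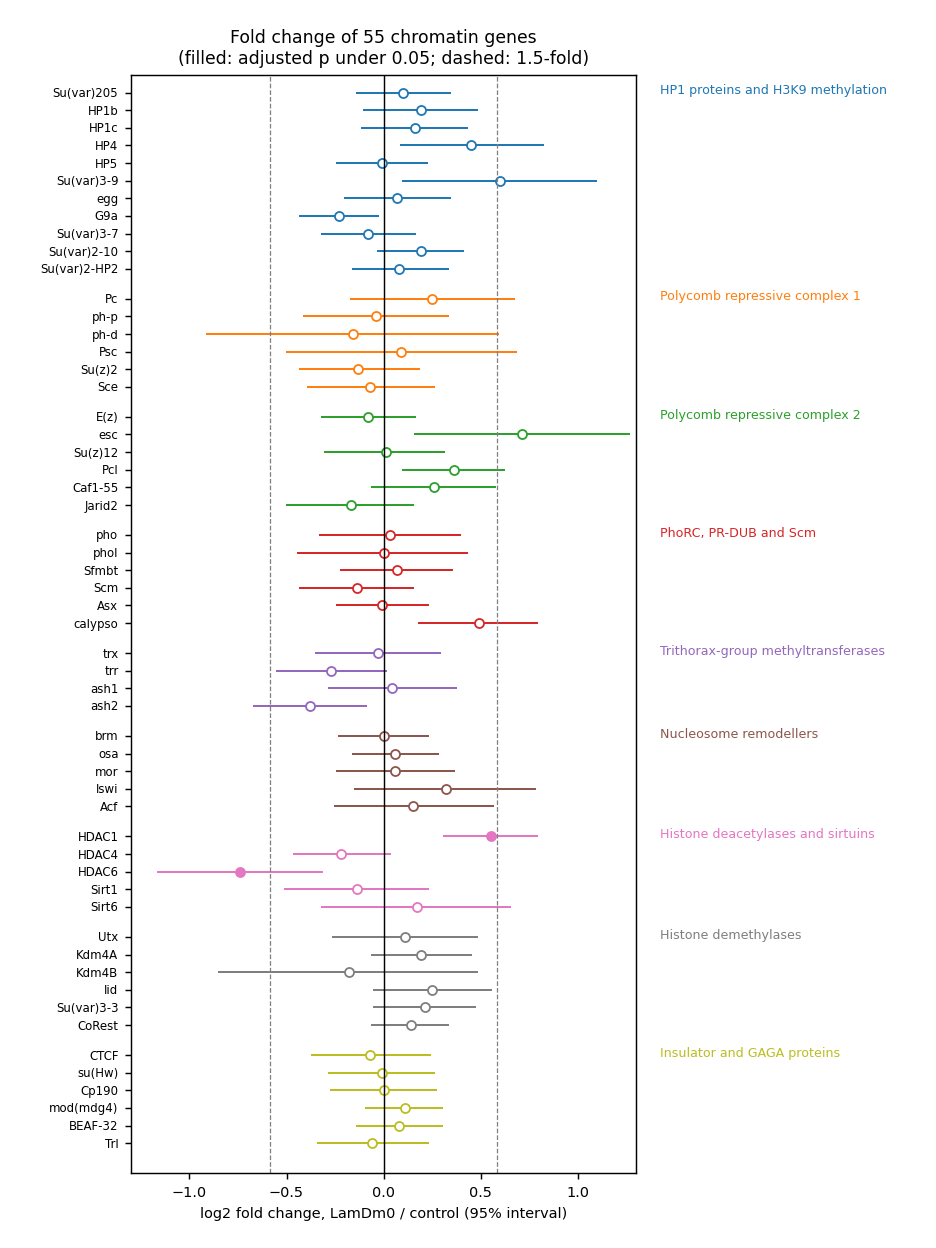
Log2 fold change of each tested chromatin gene (LamDm0 over control, n = 4 each) with its 95% confidence interval, grouped by class. Filled points are HDAC1 at 0.55 and HDAC6 at -0.74, the 2 genes called; dashed lines mark 1.5-fold.

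Histone deacetylases and sirtuins held both calls. Deacetylases remove acetyl groups from histones and other proteins, and HDAC1 (Rpd3 in older fly nomenclature; FBgn0015805, 3L, 4626734 to 4629467 in BDGP6.54) is the catalytic subunit of several co-repressor complexes. Its control libraries held 21.4, 24.5, 21.8 and 25.3 CPM and its LamDm0 libraries 29.6, 37.3, 34.4 and 35.0 CPM. Every LamDm0 library was above every control. The mean rose 1.46-fold from 23.3 ± 1.97 to 34.1 ± 3.24 CPM (SD, n = 4 each; log2 fold change 0.55 ± 0.11 SE, adjusted p = 0.018 by edgeR). The call ended without control replicate 1, LamDm0 replicate 3 or LamDm0 replicate 4 (adjusted p = 0.063, 0.051 and 0.053 by edgeR), while the log2 fold change stayed between 0.51 and 0.61. The call also ended without both LamDm0 replicates 3 and 4, and with libraries summed in pairs. A noncoding gene on the other strand, lncRNA:CR45438, covers 8.0% of its exon bases.

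HDAC6, which in animals acts largely on cytoplasmic proteins such as tubulin, fell (FBgn0026428, X, 15333310 to 15340360). Controls held 123, 106, 112 and 118 CPM and LamDm0 guts 86.5, 82.8, 55.8 and 50.4 CPM. All LamDm0 libraries were below all controls, and replicates 3 and 4 were well below replicates 1 and 2. The mean fell 1.67-fold from 115 ± 7.17 to 68.9 ± 18.4 CPM (log2 fold change -0.74 ± 0.18, adjusted p = 0.044 by edgeR). This call was lost without any 1 of the 4 controls, without LamDm0 replicate 3 and without LamDm0 replicate 4 (adjusted p = 0.078 to 0.11), and with the replicate number as a block (-0.78, adjusted p = 0.087). The log2 fold change was -0.43 without both LamDm0 replicates 3 and 4 and -1.11 without both 1 and 2. An antisense RNA, asRNA:CR44998, covers 21.1% of its exon bases on the other strand, with 28 to 72 counts per library against 1613 to 2567 for HDAC6, and the strand setting of the counting is not given in the sources used here.

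The other 3 tested genes of the class did not pass. HDAC4, a class IIa deacetylase, a kind that shuttles between nucleus and cytoplasm, had 29.9 ± 1.91 CPM in controls and 25.7 ± 3.02 CPM in LamDm0 guts (-0.22 ± 0.11, adjusted p = 0.27). The NAD-dependent deacetylases Sirt1 and Sirt6 had log2 fold changes of -0.14 ± 0.16 and 0.17 ± 0.21 (adjusted p = 0.65 and 0.69). HDAC3 (3R, 5472810 to 5474600), the catalytic subunit of the SMRTER co-repressor complex, is annotated inside another gene, CG45100, on the same strand, which covers 100% of its exon bases and also had 0 counts. Of 296 protein-coding genes in that position in the annotation used here, 277 (93.6%) had 0 counts in all libraries, against 16.8% of the other protein-coding genes. Its value therefore gives no level for HDAC3.

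**Figure D3:**
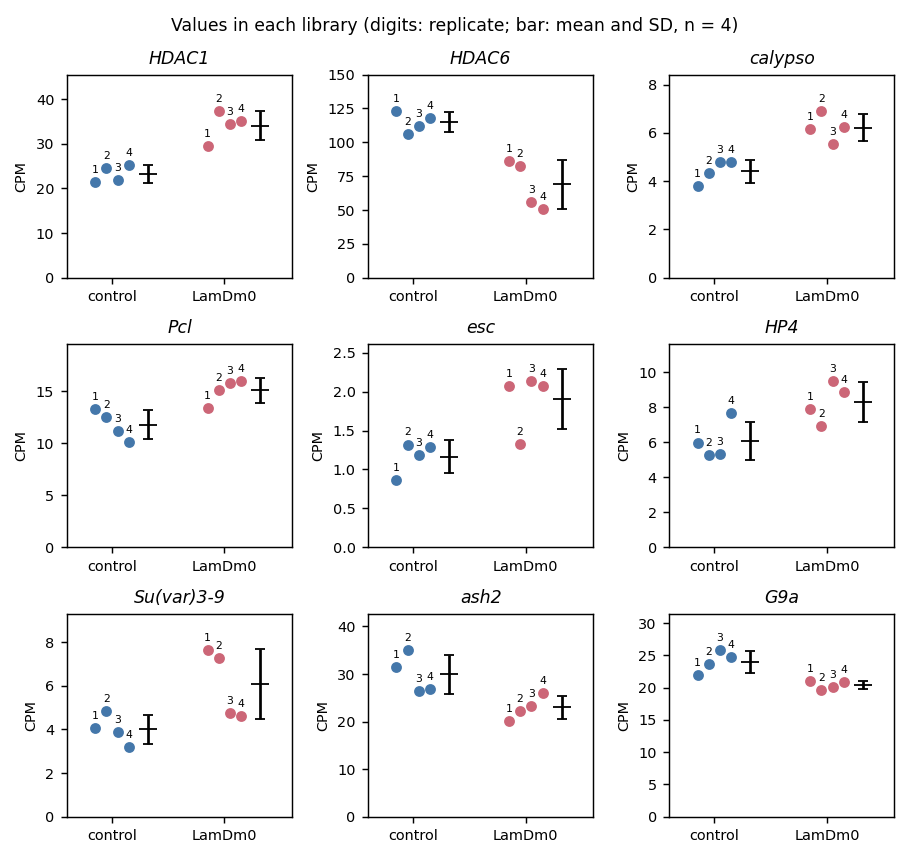
CPM in each library (digits give the replicate) for the 9 chromatin genes with an unadjusted p under 0.05, control in blue and LamDm0 in red, with the mean and SD of 4 libraries in black; each y axis starts at 0. HDAC1 lies at 21.4 to 25.3 CPM in controls and 29.6 to 37.3 CPM in LamDm0 guts, and Su(var)3-9 and HDAC6 are split between LamDm0 replicates 1 and 2 and replicates 3 and 4.

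Among HP1 proteins, their partners and the enzymes of H3 lysine 9 methylation, none of 11 genes was called by edgeR, DESeq2 or limma-voom. In edgeR 3 of the 11 had an unadjusted p under 0.05, against 23.9% of all tested genes. The gene of HP1a, the main heterochromatin protein (FBgn0003607, shown in the plots under its Su(var) symbol), was at 43.9, 42.5, 45.8 and 49.4 CPM in controls and 52.8, 53.4, 44.4 and 43.6 CPM in LamDm0 guts. LamDm0 replicates 1 and 2 were above all controls and replicates 3 and 4 within their range (log2 fold change 0.10 ± 0.11, adjusted p = 0.62). Its paralogs HP1b and HP1c had 14.3 ± 1.40 against 16.4 ± 2.49 CPM and 7.54 ± 0.745 against 8.44 ± 0.835 CPM, with intervals of -0.10 to 0.48 and -0.11 to 0.43 on the log2 scale.

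Of the methyltransferase genes, Su(var)3-9 had 4.07, 4.84, 3.89 and 3.20 CPM in controls and 7.63, 7.28, 4.77 and 4.62 CPM in LamDm0 guts. LamDm0 replicates 1 and 2 were above every control, and replicates 3 and 4 overlapped the control range (0.60 ± 0.22, adjusted p = 0.14). It shares 14.8% of its exon bases with eIF2gamma on the same strand. G9a had 21.9, 23.6, 25.8 and 24.7 CPM and then 21.1, 19.7, 20.1 and 20.9 CPM, a narrow difference with no overlap that did not pass (-0.23 ± 0.09, adjusted p = 0.15). The third enzyme, egg, the fly SETDB1, had 16.4 ± 1.79 and 17.2 ± 1.89 CPM (adjusted p = 0.77). HP4, an HP1 partner, had 5.98, 5.29, 5.32 and 7.65 CPM in controls and 7.87, 6.90, 9.51 and 8.85 CPM in LamDm0 guts, with overlap through control replicate 4 (0.45 ± 0.16, adjusted p = 0.13). The remaining 4 genes stood between -0.08 and 0.19 on the log2 scale. They were HP5, the zinc finger gene Su(var)3-7, the SUMO ligase gene Su(var)2-10 and the HP1 partner Su(var)2-HP2.

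Polycomb repressive complex 1 showed no call, and 0 of its 6 genes had an unadjusted p under 0.05 by edgeR, DESeq2 or limma-voom. Pc, whose chromodomain binds methylated H3 lysine 27, had 3.97, 4.63, 3.11 and 2.92 CPM in controls and 4.25, 3.76, 4.57 and 4.76 CPM in LamDm0 guts. The groups overlapped (0.25 ± 0.18, adjusted p = 0.46). Sce, the ubiquitin ligase of H2A, and its RING partners Psc and Su(z)2 had log2 fold changes of -0.07, 0.09 and -0.13. The Polyhomeotic genes ph-p and ph-d lie side by side on X and are close copies, so the split of reads between them is uncertain. They had 11.0 ± 2.08 against 10.7 ± 1.63 CPM and 2.46 ± 0.785 against 2.19 ± 0.801 CPM.

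In Polycomb repressive complex 2, again none of 6 genes was called by any of the 3 tools. In edgeR 2 of the 6 had an unadjusted p under 0.05, against 23.9% of all tested genes. E(z), the methyltransferase of H3 lysine 27, had 17.7 ± 2.21 CPM in controls and 16.7 ± 0.135 CPM in LamDm0 guts (-0.08 ± 0.11, adjusted p = 0.68), and its core partner Su(z)12 had 18.1 ± 2.24 and 18.1 ± 2.51 CPM. Pcl, an accessory subunit, had 13.3, 12.5, 11.2 and 10.1 CPM and then 13.4, 15.1, 15.8 and 16.04 CPM. Groups nearly touched but did not overlap, and the difference did not pass (0.36 ± 0.12, adjusted p = 0.097). The subunit gene esc, which binds the mark that the complex makes, was the least abundant tested member in CPM, with 18 to 91 counts in a library. It held 0.862, 1.32, 1.18 and 1.29 CPM in controls and 2.07, 1.33, 2.14 and 2.07 CPM in LamDm0 guts, where replicate 2 stood at the top of the control range (0.71 ± 0.24, adjusted p = 0.12). Caf1-55, a histone chaperone shared by several complexes, and the accessory subunit Jarid2 had log2 fold changes of 0.26 ± 0.14 and -0.17 ± 0.14 (adjusted p = 0.30 and 0.51).

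Of the 6 genes for the DNA-binding Polycomb complex PhoRC, for Scm and for the deubiquitinase PR-DUB, calypso came nearest to a call. It encodes the catalytic subunit that takes ubiquitin off H2A (FBgn0262166, 2R, 16194062 to 16196333). Controls held 3.78, 4.33, 4.78 and 4.78 CPM and LamDm0 guts 6.16, 6.90, 5.53 and 6.23 CPM. No LamDm0 library overlapped a control, and the log2 fold change was 0.49 ± 0.13 (1.40-fold, adjusted p = 0.06 by edgeR). DESeq2 called it at an adjusted p of 0.037, limma-voom did not, and edgeR called none of the class. Another gene, clu, covers 10.1% of its exon bases on the other strand. In counts not scaled for library size, clu had 1507 to 1874 in controls and 1979 to 4950 in LamDm0 guts. The highest of these came from the largest library, LamDm0 replicate 4. On the same unscaled basis calypso had 79 to 274 per library. The value of calypso is therefore uncertain while the strand setting is not known. The partner of calypso in the enzyme, Asx, had 21.1 ± 0.736 and 21.0 ± 2.42 CPM. The DNA-binding proteins pho and phol, the Pho partner Sfmbt, and Scm, which links complexes, ranged from -0.14 to 0.07 on the log2 scale.

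Trithorax group methyltransferase genes had 0 of 4 called by edgeR, DESeq2 or limma-voom. At an unadjusted p under 0.05 there was 1 in edgeR, against 23.9% of all tested genes, and there were 2 in DESeq2. The gene in edgeR was ash2, a core subunit shared by the H3 lysine 4 methyltransferase complexes. It had 31.5, 35.0, 26.4 and 26.9 CPM in controls and 20.2, 22.3, 23.3 and 26.1 CPM in LamDm0 guts. The lowest control and the highest LamDm0 library were 26.4 and 26.1 CPM, so the gap between groups was small (-0.38 ± 0.13, adjusted p = 0.11). The H3 lysine 4 methyltransferase gene trr had 28.7 ± 3.05 and 23.8 ± 2.96 CPM (-0.27 ± 0.12, adjusted p = 0.22). The founding member trx and the H3 lysine 36 methyltransferase gene ash1 had log2 fold changes of -0.03 ± 0.14 and 0.04 ± 0.14.

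Nucleosome remodeller genes had log2 fold changes from -0.00 to 0.32. None of 5 was called, and 0 had an unadjusted p under 0.05, with each of the 3 tools. The ATPase gene brm had 41.5 ± 3.99 and 41.4 ± 2.88 CPM, and its complex partners osa and mor 70.9 ± 5.32 against 73.9 ± 4.83 CPM and 31.2 ± 4.17 against 32.5 ± 3.91 CPM. Iswi, the ATPase of another remodeller family, had 23.7 and 24.6 CPM in control replicates 1 and 2, 14.6 CPM in replicate 4 and slightly less in replicate 3, and 20.5, 23.1, 26.2 and 26.0 CPM in LamDm0 guts. Control replicates 3 and 4 were below all other libraries, and the groups overlapped (0.32 ± 0.21, adjusted p = 0.40). Acf, its partner, had a log2 fold change of 0.15 ± 0.18.

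Histone demethylase genes had a median log2 fold change of 0.17, with 5 of 6 above 0, where 4512 of all 8794 tested genes were. Of the 6, 0 were called or at an unadjusted p under 0.05 by edgeR, DESeq2 or limma-voom. The most abundant was lid, which removes methyl groups from H3 lysine 4. Its controls held 81.3, 87.6, 61.9 and 63.8 CPM and LamDm0 guts 87.5, 91.3, 88.4 and 83.2 CPM. As with Iswi, control replicates 3 and 4 were lower than the other libraries (0.25 ± 0.13, adjusted p = 0.29). Su(var)3-3, the fly LSD1, and its partner CoRest had 7.01 ± 0.718 against 8.10 ± 0.532 CPM and 25.3 ± 1.37 against 27.9 ± 1.27 CPM. Utx, the H3 lysine 27 demethylase, and Kdm4A, which acts on H3 lysines 9 and 36, had log2 fold changes of 0.11 ± 0.16 and 0.19 ± 0.11. Kdm4B shares 84.8% of its exon bases with another gene on the same strand, CG17724, so its counts may cover only part of it (-0.18 ± 0.29).

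Insulator and GAGA factor genes had the narrowest range of the 9 classes, with log2 fold changes from -0.07 to 0.11 and all 6 intervals within 1.5-fold. None was called and 0 had an unadjusted p under 0.05 with edgeR, DESeq2 or limma-voom. Cp190, the cofactor that DNA-bound insulator proteins share, had 48.3, 52.1, 42.0 and 42.6 CPM in controls and 39.4, 44.7, 50.8 and 50.4 CPM in LamDm0 guts. Controls were higher in replicates 1 and 2 and LamDm0 guts in replicates 3 and 4, and the means were 46.2 and 46.3 CPM (0.00 ± 0.12). The smallest p in the class belonged to mod(mdg4), a second cofactor, with 28.9, 30.5, 27.7 and 31.3 CPM and then 31.2, 30.3, 32.7 and 33.2 CPM (0.11 ± 0.09, adjusted p = 0.49). Its transcripts are spliced in trans, and 56.9% of its exon bases are annotated to other genes on the same strand, so its level is uncertain. The DNA-binding proteins CTCF, su(Hw) and BEAF-32 had log2 fold changes of -0.07, -0.01 and 0.08. An antisense RNA, asRNA:CR45822, covers 24.2% of the exon bases of CTCF on the other strand. It had 0 to 3 counts in controls and 120 to 147 in LamDm0 guts, not scaled for library size. CTCF itself had 299 to 726 such counts per library, and 15.3 to 16.5 CPM in LamDm0 guts. The value of CTCF is therefore uncertain while the strand setting is not known. The antisense RNA asRNA:CR42254 covers 24.9% of BEAF-32, with 19 to 38 counts in controls and 32 to 66 in LamDm0 guts, also unscaled. BEAF-32 had 235 to 592 such counts per library. Trl, the GAGA factor, had 9.78 ± 1.25 and 9.40 ± 0.958 CPM, with 77.8% of its exon bases shared with other genes on its strand.

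Levels between genes were compared as CPM per kb of annotated exon. The HP1a gene led, with 40.9 ± 2.70 in controls and 43.8 ± 4.74 in LamDm0 guts, above 83.9% of all tested genes. With genes ordered by both group means added together, HDAC6 followed with 21.9 ± 1.37 and 13.1 ± 3.51 CPM per kb. HDAC1 came next in that order with 11.0 ± 0.926 and 16.05 ± 1.52 CPM per kb. In controls ash2, pho and Sirt1 were above HDAC1, at 13.4, 12.2 and 11.8 CPM per kb. In LamDm0 guts the mean of HDAC1 was above that of HDAC6. HDAC6 was thus above HDAC1 in control guts by more than the SD of either, while in LamDm0 guts the means differed by less than the SD of HDAC6. The next genes, pho, ash2, Caf1-55, Sirt1, lid and Cp190, lay between 10.3 and 13.4 CPM per kb in both groups, and their order differed between the groups. At the low end were esc, Kdm4B, Psc and ph-d, the last at 0.402 and 0.357 CPM per kb. In all, 41 of 55 members were below the median of the tested genes per kb.

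**Figure D4:**
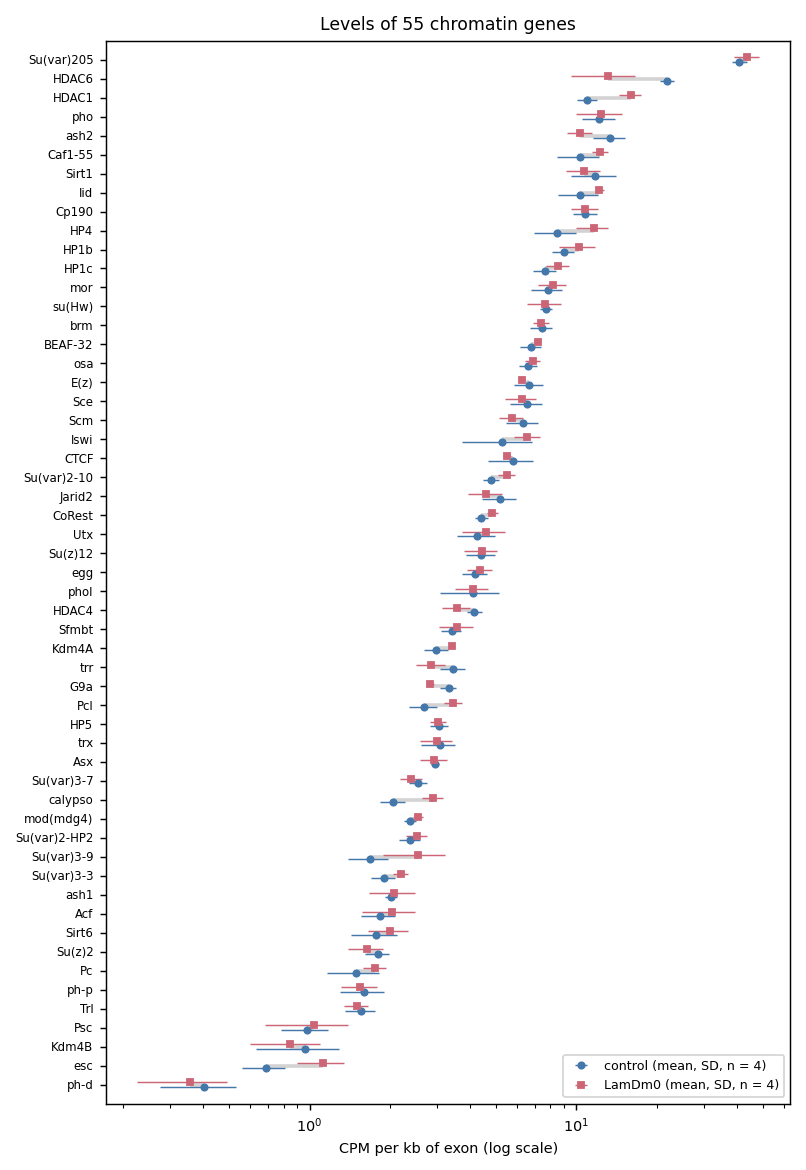
Mean level of each tested chromatin gene in CPM per kb of exon (x axis, log scale) in control (blue circles) and LamDm0 guts (red squares), with SD over 4 libraries. Genes are ordered by both group means added together. The HP1a gene is highest at 40.9 and 43.8, and among the next 4 genes the SD bars of HDAC6, HDAC1 and ash2 do not overlap between groups.

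Differences among libraries of one group were often as large as the difference between groups. For 49 of 55 members the range over the 4 controls exceeded the size of the log2 fold change, as it did for 76.4% of all tested genes. Within the controls, 25 of 55 members were higher in both replicates 1 and 2 than in both 3 and 4, and 8 were lower, against 31.7% and 30.4% of all tested genes. Within LamDm0 guts, 9 were higher in replicates 1 and 2 and 33 lower, against 32.8% and 32.9%. This comparison was chosen after the values were seen and carries no test. The control range passed 1.5-fold for 7 members: Pc, ph-d, Psc, phol, Iswi, Sirt1 and Kdm4B, as it did for 3220 of all 8794 tested genes. The median SD as a share of the mean was lower for the members than for all tested genes in both groups, at 11.5% against 16.3% in LamDm0 guts. For phol the controls held 16.7, 16.8, 9.81 and 12.3 CPM, and for Sirt1 they held 49.5, 54.7, 36.0 and 39.7 CPM. The share of mitochondrial counts also differed between these libraries, at 5.55% and 7.85% in control replicates 1 and 2 and 15.2% and 13.8% in replicates 3 and 4. In LamDm0 replicates 1 to 4 it was 21.9%, 10.6%, 8.53% and 10.25%. Replicates 1 and 2 were thus above 3 and 4 there, with replicates 2 and 4 nearly alike. Its part was not tested.

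**Figure D5:**
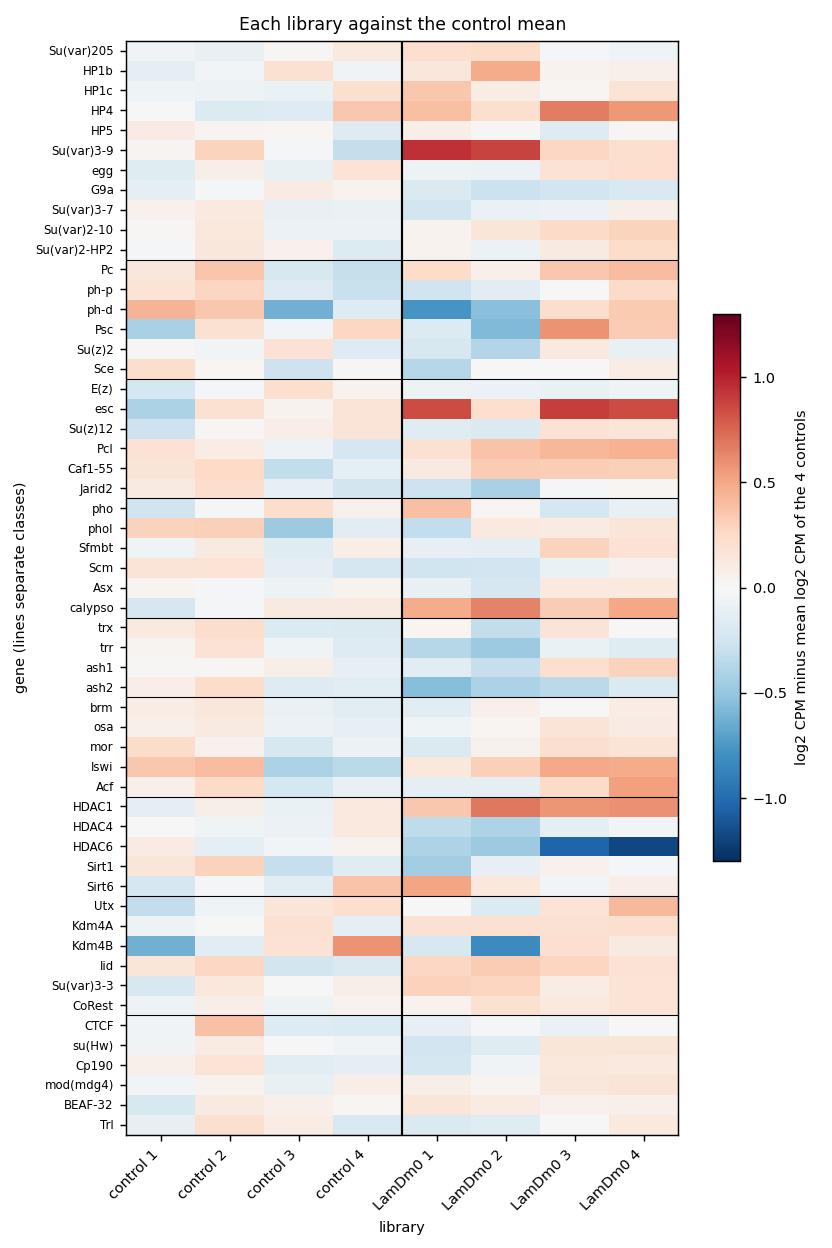
Log2 CPM of each tested chromatin gene in each of the 8 libraries minus the mean log2 CPM of the 4 controls (red higher, blue lower); a vertical line separates the groups and horizontal lines the classes. HDAC1 is red in all 4 LamDm0 libraries and HDAC6 blue in all 4, while for 49 of 55 genes the range over the controls exceeds the group difference.

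Other genes of the same chromatin pathways gave a few larger changes. A list of 125 further genes, written out by pathway, held 120 that were tested, of which 4 were higher, 1 was lower and 115 did not pass. With edgeR the shares, 3.33% and 0.833%, lie below the 4.76% and 3.26% of all tested genes. Their median log2 fold change was 0.04. By list, 1 of 21 tested heterochromatin genes was higher, 1 of 16 acetylation genes was higher, 2 of 6 demethylation genes were higher and 1 of 22 remodeller genes was lower. By edgeR 0 of 18 Polycomb, 0 of 16 Trithorax and COMPASS and 0 of 21 insulator genes were called, with 1, 1 and 4 at an unadjusted p under 0.05. Over the whole list of other genes DESeq2 called 16 of 122, against 1289 of all 12980 genes. Those 12980 include low-count genes that the edgeR filter left out, so these 2 shares cannot be ranked against each other. With limma-voom 6 of 120 were called, against 684 of all 8794 genes.

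Gcn5, the histone acetyltransferase of the SAGA complex, rose 2.52-fold. Controls held 26.0, 26.7, 24.3 and 27.0 CPM and LamDm0 guts 61.5, 79.5, 57.9 and 63.9 CPM (log2 fold change 1.34 ± 0.12, adjusted p = 0.00049). Each LamDm0 library was at least as high as 57.9 CPM, above every control, and the call was kept without any 1 library. Its neighbour ver covers 1.0% of its exon bases on the other strand. In counts not scaled for library size, ver had 46 to 55 in controls and 172 to 266 in LamDm0 guts.

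Kdm3, a demethylase gene of H3 lysine 9, rose 1.86-fold from 6.92 ± 0.88 to 12.9 ± 1.38 CPM (adjusted p = 0.0048), also without any 1 library, and shares 15.9% of its exon bases with CG8176 on the same strand. The remaining calls were less stable. JMJD5, of the JmjC family, rose 1.32-fold (adjusted p = 0.039) and HP1D3csd, an HP1-related chromo shadow domain gene, 2.10-fold from 1.52 ± 0.286 to 3.18 ± 1.00 CPM (adjusted p = 0.045). The remodeller ATPase gene dom fell 1.48-fold from 182 ± 28.8 to 124 ± 5.43 CPM (adjusted p = 0.035). JMJD5 kept its call only without control replicate 3, HP1D3csd only without LamDm0 replicate 2, and dom only without control replicate 4. With each of the other 7 libraries left out these calls ended (adjusted p up to 0.11, 0.12 and 0.099).

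The authors' deposited table of their own comparison holds 55 of the members. An adjusted p under 0.05 is given by the authors' deposited table for 3 of them: HDAC1 with a log2 fold change of 0.52, HDAC6 with -0.72 and calypso with 0.45. Of the 10499 genes given an adjusted p in the authors' deposited table, 12.2% were under that threshold.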

How the data were processed

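The authors deposited counts for 17559 genes in 1 table of 8 libraries, used as they stand: values are whole and library totals differ. Per the submitters' processing notes, TopHat2 2.0.13, HTSeq 0.6.0, DESeq2 1.10.1 and build BDGP6 were used, with no role given. The sources used here give neither strand setting nor annotation release. Per the labels, the kit marks strand, 100 ng of RNA went through poly(A) selection, and 12 libraries were pooled on 2 lanes of single 50 nt reads; 4 of them were not used here. The authors also deposited a table of log2 fold changes, p-values and a mean signal per gene from their own test.

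The whole table was fitted with edgeR 4.0.16 in R 4.3.3 (filterByExpr, TMM scaling, quasi-likelihood F-test, two-sided, no block), and p-values were adjusted by Benjamini-Hochberg over the 8794 genes tested. Adjusted p means this value unless another tool is named. The SE of a log2 fold change is its absolute value over the root of F, and the 95% interval uses the fit's degrees of freedom. CPM are TMM-scaled, given as mean ± SD. A library at 0 allows up to 3 counts, or 0.0683 to 0.153 CPM on this scale, for counting error only. Exon lengths, positions and overlaps are from Ensembl 115, BDGP6.54, matched by identifier. No sequence table was used here, so the planned promoter motif search was not run.

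Members, lists and tests were chosen with earlier results of these data known, although the rule for members reads only symbols. Every member could be named; per-library values were given for called members, for the smallest p of each class and for the most and least abundant, and for others after their values were seen. Of the other chromatin genes, those called were named. Of the marker and chromatin genes written, dsp1, Sap18, sds3, wupA and vas were not matched.

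In simulated counts for this comparison most changes of 1.5-fold, and many of 2-fold, were not called. A gene that did not pass may therefore still have changed by such amounts. Its 95% interval gives the sizes that remain possible. Alternatives were DESeq2 1.42.0, limma-voom 3.58.1, RLE size factors, other filters, a replicate block, libraries left out and libraries summed in pairs. The labels say that libraries are biological repeats but not what was pooled in each.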

Additional observations from a re-analysis of the deposited data

Results flagged for a closer look

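Among 110 groups of 4 libraries (55 genes in 2 groups), 4 held a library far from the other 3, and chance flags about 1 in 20 groups. HP1c was at 8.66 CPM in control replicate 4 against 7.10 to 7.23 CPM in the other controls. In LamDm0 guts, esc was at 1.33 CPM in replicate 2 against 2.07 to 2.14 CPM. Caf1-55 was at 20.3 CPM in LamDm0 replicate 1 against 23.2 to 23.4 CPM. The gene phol was at 10.9 CPM in LamDm0 replicate 1 against 14.6 to 15.1 CPM.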

How the results depend on the processing

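Over 17 alternatives, 903 of 920 values of single members kept their side of the threshold and 0 called values changed sign; 88 uncalled values, of 27 members, did. Of members higher, DESeq2 gave 2 and summed pairs 0, and leaving out 1 library gave 0 to 1. Of members lower, there were 0 with a minimum of 10 CPM, with summed pairs, with the replicate block and without LamDm0 replicates 3 and 4, and 0 to 1 with 1 library left out. HDAC1 kept its call in 12 alternatives and HDAC6 in 7 (adjusted p up to 0.37 and 0.40, both with summed pairs). Su(var)3-9 was called without LamDm0 replicates 3 and 4 (0.91), where HDAC1 was not. Other chromatin genes higher numbered 11 by DESeq2, 9 without LamDm0 replicates 1 and 2, 2 with no filter and 0 with summed pairs, and 2 to 4 with 1 library left out. Those lower numbered 5 by DESeq2, 0 with the replicate block, summed pairs or without LamDm0 replicates 3 and 4, and 0 to 1 with 1 library left out. DESeq2 tested 122 genes of this list and had 660 of all 12980 genes, low-count genes included, higher. The fit without LamDm0 replicates 1 and 2 tested 121 and had 452 of all 9026 higher. Gcn5 had an adjusted p of 0.053 with summed pairs and kept its call in the other 16. Same-numbered libraries of the 2 groups did not deviate together (correlations -0.37 to -0.03, against up to 0.3 for other pairs). So few correlations cannot show whether numbers pair the libraries. The block moved all calls from 706 to 332. The cause of these changes was not tested, other than that summing leaves 2 libraries a group. Over all tested genes the number called was 346 to 654 with 1 library left out, 878 and 439 without LamDm0 replicates 1 and 2 or 3 and 4, 72 summed and 1289 by DESeq2, and with a minimum of 10 CPM 461. Of the tested members esc had the lowest total, 328 counts over all libraries.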
